A study of Mus musculus with 8 samples.

Results

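Promoter methylation of 34 germline and meiosis genes was examined in mouse B and T lymphocytes. The genes were taken as a fixed list of names, and each promoter was the 1 kb on either side of the outermost annotated gene start. All 34 could be measured, among 20501 protein-coding promoters with enough CpGs and reads out of 21755 annotated starts. The measurement was whole genome oxidative bisulfite sequencing (WGoxBS), in which unmodified cytosine is read as T, and a preceding oxidation step is meant to make hydroxymethylated cytosine read as T too, so that the level is that of 5-methylcytosine. Spleens of C57BL/6J mice aged 6 to 8 weeks gave resting B cells (CD43-) and CD4+ T cells of the naive state, from females and males separately, with no mutation or treatment given for any group. The labels give 8 samples in 4 groups of 2, but both samples of a group point to 1 deposited file with 1 value per CpG. The units compared were therefore 4 libraries, each pooled over mice, and no value has a spread between replicates of its group.

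In a germ cell these genes build the synaptonemal complex, hold sister chromatids together, make and repair meiotic DNA breaks, and silence transposons through piRNAs, small RNAs bound by PIWI proteins. Many of their promoters are rich in CpGs, a kind of promoter that is normally free of methylation in every tissue. A set of germline promoters is the known exception, since DNA methylation laid down around implantation keeps them shut in somatic cells. RNA was not analysed here, so the levels below say nothing of whether a gene was silent.

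The libraries held 280919817 to 354634149 reads at CpGs, with a median of 14 to 17 reads per autosomal CpG, the lowest in male B cells. Each germline promoter rested on 219 to 2819 reads per library, so that the 95% Wilson interval of a level was at most 7.35 percentage points wide. These intervals, and the limits given below for counts of 0, cover counting error only. They may be too narrow, since neighbouring CpGs share reads and no molecular identifiers were used. Reads of the mitochondrial genome, taken as nearly unmethylated, were called methylated at 0.0709% to 0.0733% in the T cell libraries, 0.271% in female B cells and 0.727% in male B cells. The promoters of genes that define the labelled cells followed the labels: the T cell receptor component Cd3e was at 1.23% and 1.38% in female and male T cells against 84.9% and 86.1% in B cells, and the B cell receptor component Cd79a was at 8.36% and 12.7% in B cells against 68.8% and 71.4% in T cells. Of genes that mark other cells, Cd8b1 and Cd8a were lower in the T than in the B libraries by 60.6 and 28.8 points, whereas the natural killer cell genes Ncr1 and Klrb1c and the myeloid gene Csf1r were at 78.9% to 91.5% in all 4 libraries. The other myeloid genes of the list differed between the cell types and in opposite directions, Itgam at 72.4% and 73.6% in female and male B cells, against 60.2% and 59.7% in T cells, and Lyz2 at 48.4% and 47.2%, against 63.0% and 66.2%. Their part in the results was not tested.

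Of the 34 germline promoters, 26 were methylated at 50% or more in all 4 libraries, and 18 of these at 90% or more. Another 3 were under 20% in all 4, namely Spo11, Meiob and Tdrkh, and 5 lay between, namely Smc1b, Dmc1, Rec8, Stag3 and Tdrd6. Over all 20501 promoters, 6387 (31.2%) were at 50% or more in every library and 11027 (53.8%) were under 20%. The median level was 92.0% over the germline genes and 13.5% over all promoters. The list was drawn up as one of genes silenced by promoter methylation. For 8 of its members the level around the outermost annotated start was not high, and a description of the whole list as methylated would not hold. Among these 8, Spo11 was low by its outermost start only, with a mean of 92.2% around its coding start.

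**Figure D1:**
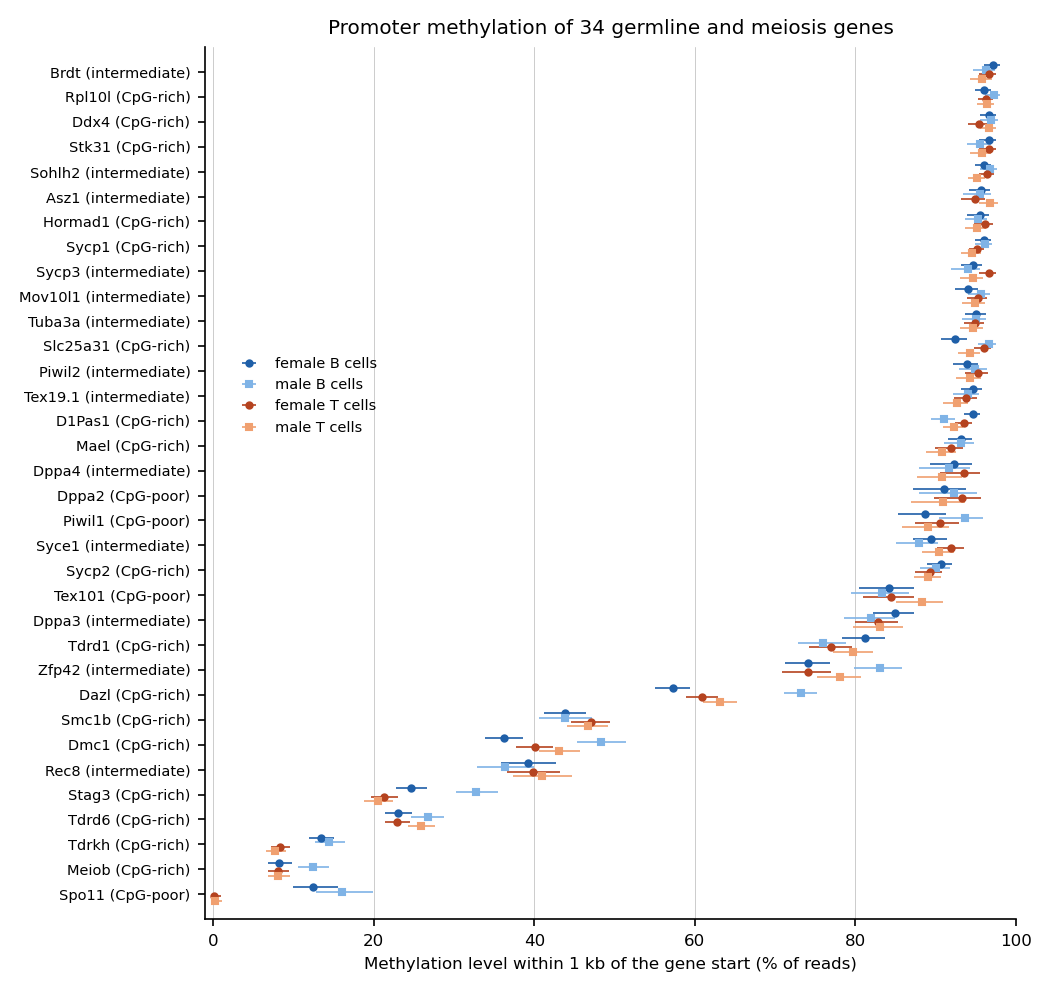
Methylation level of each germline promoter (x axis, % of reads within 1 kb of the gene start) in the 4 libraries, with 95% Wilson intervals, in order of the mean level. The 18 genes at the top sit at 90% or more in every library and overlap their neighbours in the order, while Smc1b and the 7 genes below it sit under 50%.

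The comparison that bears on these genes is within a promoter class, because methylation falls with CpG number across the genome. Promoters were classed by sequence alone, as CpG-rich (some 500-base window within 1 kb with an observed to expected CpG ratio over 0.75 and over 55% GC), CpG-poor (no such window over 0.48) or intermediate. Of the 10645 CpG-rich promoters tested, 102 (0.958%) were at 50% or more in all 4 libraries, and their median level was 5.04%. Of the 17 CpG-rich germline promoters, 11 (64.7%) were at 50% or more, and their median was 89.8%. These 11 genes were 10.8% of the 102 methylated CpG-rich promoters. Among intermediate promoters, 12 of 13 germline genes were at 50% or more, beside 1305 of 4062 in all. Among CpG-poor promoters, which are methylated as a rule, 3 of 4 were, beside 4980 of 5794.

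The order by CpG number was a different one from the order by level. The reference held 139 CG sites within 1 kb of the start of Dazl, 119 at Tdrd6, 113 at D1Pas1, 104 at Stag3 and 101 at Sycp1, and only 14 at Dppa2, the fewest. Of the 10 germline promoters with the most CG sites, 3 were at 90% or more in every library (D1Pas1, Sycp1 and Ddx4) and 6 were under 50%. Across the 34 genes Spearman's rho between CpG number and level was -0.08, beside -0.82 over all promoters. Within the CpG-rich class it was -0.45 over 17 germline genes and -0.48 over all promoters. Both measures come from the same windows, and the values are descriptions.

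**Figure D2:**
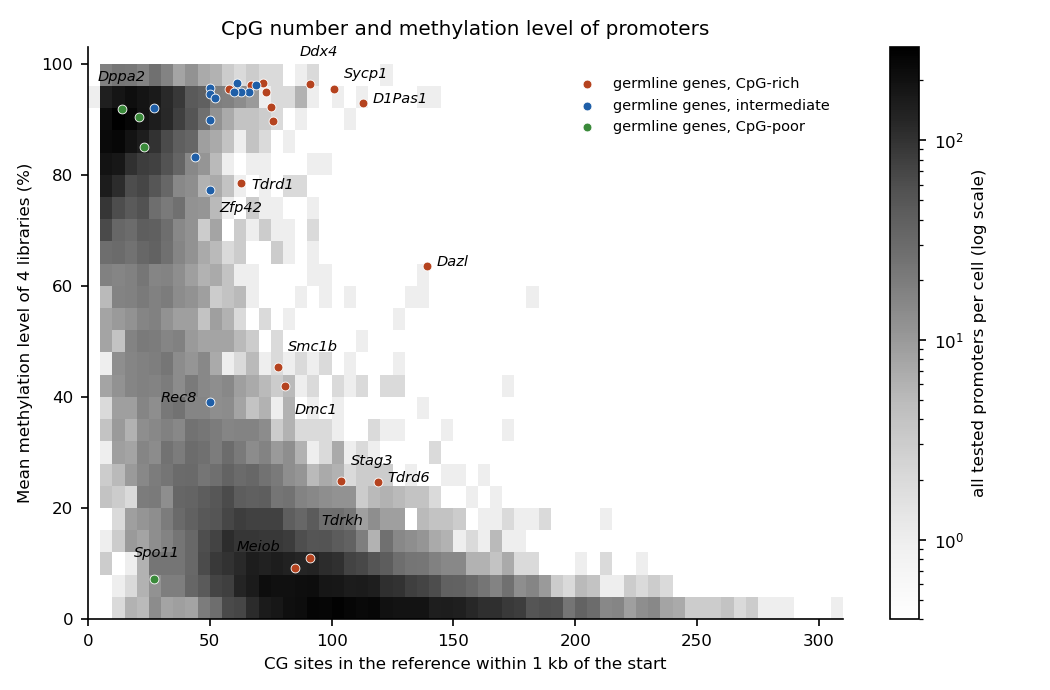
CG sites in the reference within 1 kb of the start (x axis) against the mean level of the 4 libraries (y axis, %) for all tested promoters, as grey cells whose shade is the number of promoters on a log scale, and for the 34 germline genes, coloured by promoter class. Dazl, D1Pas1, Sycp1 and Ddx4 lie in the upper right, where few other promoters lie, and Meiob and Tdrkh lie among the unmethylated CpG-rich promoters.

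Neighbours in the order by level were mostly not separable. In 27 of the 34 genes the 4 libraries spanned less than 5 points, with a median span of 2.83 points. Of the 33 pairs of neighbours in the order, 6 had libraries that did not overlap, at the steps from Sycp2 to Tex101, Dppa3 to Tdrd1, Zfp42 to Dazl, Dazl to Smc1b, Rec8 to Stag3 and Tdrd6 to Tdrkh. The first 12 genes had means between 94.8% and 96.5%, and each overlapped its neighbours in the order.

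The promoters of 3 methylated genes and of 3 genes that were low just before the start (Smc1b, Stag3 and Tdrkh) are shown because both kinds hold many CGs. Each is the stretch of 250 bases before the RefSeq start on GRCm38.p6, in the direction of the gene, with every CG in capitals. RefSeq held a promoter for 27 of the 34 genes. In Ddx4 and Stag3 its start lay 165 and 269 bases downstream of the GENCODE start used for the levels, and in the other 4 the starts differed by up to 29 bases.
Ddx4, chr13:112652311-112652560, minus strand: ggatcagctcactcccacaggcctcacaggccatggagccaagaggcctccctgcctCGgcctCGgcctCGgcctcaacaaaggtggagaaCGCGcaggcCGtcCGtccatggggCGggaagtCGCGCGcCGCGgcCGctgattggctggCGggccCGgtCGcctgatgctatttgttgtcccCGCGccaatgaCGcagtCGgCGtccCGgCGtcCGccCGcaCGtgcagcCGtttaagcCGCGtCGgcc
Sycp1, chr3:102936101-102936350, minus strand: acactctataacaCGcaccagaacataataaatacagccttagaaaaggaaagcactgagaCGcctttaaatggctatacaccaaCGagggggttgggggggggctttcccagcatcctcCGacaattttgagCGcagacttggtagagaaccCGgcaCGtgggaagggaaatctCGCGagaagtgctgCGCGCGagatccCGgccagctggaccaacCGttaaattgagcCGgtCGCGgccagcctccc
Hormad1, chr3:95559427-95559676, plus strand: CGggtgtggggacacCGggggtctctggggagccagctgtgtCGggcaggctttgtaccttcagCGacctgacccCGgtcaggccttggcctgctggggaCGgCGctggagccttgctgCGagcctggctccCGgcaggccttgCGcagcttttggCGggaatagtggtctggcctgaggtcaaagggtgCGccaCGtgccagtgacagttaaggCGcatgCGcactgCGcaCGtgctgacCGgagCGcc
Smc1b, chr15:85131958-85132207, minus strand: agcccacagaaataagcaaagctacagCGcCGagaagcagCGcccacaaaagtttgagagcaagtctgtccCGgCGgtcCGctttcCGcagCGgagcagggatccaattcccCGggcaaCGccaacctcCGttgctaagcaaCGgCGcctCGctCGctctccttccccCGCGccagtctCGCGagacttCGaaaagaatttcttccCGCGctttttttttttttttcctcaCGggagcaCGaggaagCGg
Stag3, chr5:138280259-138280508, plus strand: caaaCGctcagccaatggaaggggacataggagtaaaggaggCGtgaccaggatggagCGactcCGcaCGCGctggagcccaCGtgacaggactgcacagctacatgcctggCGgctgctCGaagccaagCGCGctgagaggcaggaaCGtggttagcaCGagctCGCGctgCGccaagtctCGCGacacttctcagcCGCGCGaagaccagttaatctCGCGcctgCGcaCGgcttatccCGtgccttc
Tdrkh, chr3:94412994-94413243, plus strand: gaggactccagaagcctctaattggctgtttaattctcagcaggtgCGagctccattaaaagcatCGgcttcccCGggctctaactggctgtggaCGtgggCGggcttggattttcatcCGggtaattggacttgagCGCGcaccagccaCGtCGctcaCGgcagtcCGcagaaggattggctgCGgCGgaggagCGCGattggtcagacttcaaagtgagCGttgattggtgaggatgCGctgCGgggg

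The Ddx4 stretch held 31 CGs and was methylated at 96.1% to 97.8% in the 4 libraries, with no CpG under 88.2% in the mean of the libraries. The Stag3 stretch held 26 CGs and was at 1.65% to 6.25%. The Smc1b stretch held 25 CGs and was at 7.01% to 14.9%, and the Tdrkh stretch, with 19 CGs like that of Hormad1, was at 0% (0 of 520 reads in male T cells, which allows up to 0.577%) to 1.21%. Hormad1 was at 94.2% to 96.1%, and Sycp1, with 17 CGs, at 93.0% to 98.0%.

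Of the genes of the meiotic chromosome axis and of synapsis, all 5 were at 80% or more in every library. Sycp1 makes the transverse filaments that zip homologous chromosomes together. Its CpG-rich promoter was at 96.0% and 96.1% in female and male B cells, against 95.1% and 94.5% in female and male T cells. The axis protein Sycp3 was at 94.0% to 96.6% in the 4 libraries, and Hormad1, of the axis too, at 95.1% to 96.1%. Sycp2, a further axis protein, had a mean of 89.8%, and Syce1, of the central element between the axes, one of 89.9%. At Sycp1 95 of 98 CpGs were at 80% or more.

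The 3 genes of meiotic cohesin, the ring that holds sister chromatids together, stood apart from these. None was at 50% or more in any library. Smc1b, the meiotic form of a cohesin core subunit, was at 43.8% in B cells of both sexes and at 47.0% and 46.7% in female and male T cells. Rec8, the kleisin that closes the ring, was at 39.2% and 36.4% in female and male B cells, against 39.8% and 41.0% in T cells. Stag3, the subunit that contacts the kleisin, was at 24.6% and 32.8% in B cells and at 21.3% and 20.5% in T cells. At Stag3 the level was the mean of a methylated and a nearly unmethylated piece, and only 16 of its CpGs lay between 20% and 80%, beside 69 at 20% or less and 18 at 80% or more. The 500 bases before the Stag3 start, which also hold the starts of the protein-coding genes Gpc2 and Gm43720 on the other strand, at 235 and 282 bases, were at 0% to 0.334% in the 4 libraries over 34 CpGs (0 of 677 reads in female B cells, which allows up to 0.443%). From 500 to 999 bases into the gene 19 CpGs were at 91.8% and 93.8% in female and male B cells, against 78.8% and 82.8% in T cells. The gap was not tested. Smc1b had 34 of its 72 CpGs between 20% and 80%. The 250 bases before its start, where Ribc2 starts on the other strand at 114 bases, were at 7.36% to 14.2%. From 250 to 749 bases after the start the level was 67.7% and 68.2% in female and male B cells, against 87.4% and 83.4% in T cells. This difference was not tested. Rec8 had no such partner within 1 kb. It was at 42.0% to 51.0% within 250 bases of its start, and 36 of its 48 CpGs lay between 20% and 80%.

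The genes of meiotic recombination, Meiob, Dmc1 and Spo11, were under 50% in all libraries by the outermost start. Meiob, a protein that binds single-stranded DNA during break repair, was at 8.18% and 12.4% in female and male B cells, against 8.05% and 8.09% in T cells. Within 250 bases of its start 41 CpGs were at 0.107% to 3.85%. By the mean over 1 kb, 27.3% of CpG-rich promoters were at or above Meiob. Dmc1, the meiotic strand exchange protein, was at 36.2% and 48.4% in female and male B cells, against 40.0% and 43.1% in T cells. The first 250 bases of the gene were at 10.1% to 17.2% over 27 CpGs, and the next 750 at 65.5% to 69.7% over 21. Both stretches leave out the 1 kb before the start. Of its 78 CpGs, 32 lay between 20% and 80%, so that Dmc1, like Rec8 and Smc1b, had many CpGs at partial levels.

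Spo11, which cuts DNA to start recombination, depended on the choice of its start. Its outermost annotated start, on chromosome 2 at 172977700, belongs to a transcript annotated as a retained intron, in a CpG-poor stretch with 27 CG sites. The level there was 12.5% (95% interval 9.98% to 15.5%) and 16.0% in female and male B cells. In T cells it was 0.169% (0.0299% to 0.952%) and 0.188% (0.0333% to 1.06%). Both B cell libraries lay above both T cell libraries. The coding transcripts start 2149 bases downstream, in a CpG-rich stretch with 59 CG sites, and 1 kb on either side of that start was at a mean of 92.2%. The first 250 bases from the coding start, with 22 CpGs, were at 96.4% to 97.8%. Spo11 is thus counted here among the lowest promoters by the rule of the outermost start, and among the methylated ones by its coding start.

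The piRNA pathway and the nuage, the germ cell granule where piRNAs are made, gave 11 genes, of which 9 were at 50% or more in every library. Ddx4 (Vasa), an RNA helicase and the classic germ cell marker, was at 96.7% and 96.8% in female and male B cells, against 95.5% and 96.7% in T cells, and all of its 87 CpGs were at 80% or more. The kinase-like Tudor protein Stk31 (mean 96.1%), the mitochondrial scaffold Asz1 (95.7%), the helicase Mov10l1 (94.9%), the PIWI protein Piwil2 (94.6%), the transposon regulator Tex19.1 (93.8%) and Mael (92.3%) were methylated in every library too. Asz1 and Piwil2 were of the intermediate class, Stk31 and Mael CpG-rich.

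Piwil1, another PIWI protein, was at 90.5% at its outermost start, and the start of its longest coding transcript, 33650 bases downstream and with 51 instead of 21 CG sites, was at 83.4%. Tdrd1, a Tudor protein that docks on PIWI proteins, was at 81.2% and 76.0% in female and male B cells, against 77.0% and 79.8% in T cells. Its level dipped to 67.7% to 72.9% within 250 bases of the start, and 31 of its 63 CpGs lay between 20% and 80%.

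Tdrd6 and Tdrkh, also with Tudor domains, were lower. Tdrd6 was at 23.0% in both female libraries, and in males at 26.7% (B cells) and 25.9% (T cells). It was methylated upstream (86.4% to 88.3% from 1000 to 251 bases before the start) and unmethylated 250 to 749 bases into the gene (2.93% to 5.31% over 40 CpGs). Tdrkh, a Tudor protein on mitochondria that helps trim piRNAs, was at 13.4% and 14.4% in female and male B cells, against 8.33% and 7.69% in T cells. The noncoding 1700040D17Rik starts 354 bases before Tdrkh on the other strand, and the noncoding Gm42463 starts 128 bases into it. The 500 bases before the start were at 0.112% to 2.86% over 37 CpGs.

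Among germ cell regulators, the bromodomain protein Brdt had the highest mean of all 34 genes, at 96.5%, and the transcription factor Sohlh2 was at 96.1%. Dazl, an RNA-binding protein needed to enter and complete germ cell development, was the promoter richest in CpGs, and its level, 57.2% and 73.2% in female and male B cells and 60.9% and 63.1% in T cells, was again the mean of 2 states. From 1000 bases before to 449 bases after the start 78 CpGs were at 95.3% to 97.9%. From 500 to 999 bases after it, inside the first intron, 52 CpGs were at 5.07% and 7.73% in B cells and at 1.92% and 7.18% in T cells. Within 500 bases on either side the mean was 96.3%.

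The 300 bases across this step are shown because most of the change falls within them. They run from 350 to 649 bases after the Dazl start, in the direction of the gene, and every CG is in capitals.
Dazl first intron, chr17:50292987-50293286, minus strand, GRCm38: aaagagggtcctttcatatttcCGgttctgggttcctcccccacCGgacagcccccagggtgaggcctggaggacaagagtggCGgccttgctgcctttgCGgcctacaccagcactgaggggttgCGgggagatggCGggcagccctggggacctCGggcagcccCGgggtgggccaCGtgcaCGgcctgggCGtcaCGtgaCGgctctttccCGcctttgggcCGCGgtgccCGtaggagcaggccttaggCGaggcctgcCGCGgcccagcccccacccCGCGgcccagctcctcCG

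Of the 23 CGs in this stretch 22 were measured. The 6 nearest to the start, up to 488 bases from it, were at 74.0% to 88.9% in the mean of the 4 libraries. The next, 507 bases from the start, was at 31.8%, the one after it at 37.4%, the 5 that followed lay between 7.29% and 25.4%, and the last 9, from 565 bases onward, were no higher than 8.71%. The step held in all 4 libraries. Male B cells had fewer reads on its unmethylated side (466, beside 724 to 888 in the other libraries) and about as many on its methylated side (1218, beside 1106 to 1390). With each CpG weighted equally, Dazl was at 61.5% and 62.1% in B cells and at 59.1% and 59.6% in T cells. The same weighting brought Stag3 to 26.0% and 26.6% in B cells and 23.5% and 21.2% in T cells, and Dmc1 to 39.6% and 38.9% against 41.2% and 41.0%.

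**Figure D3:**
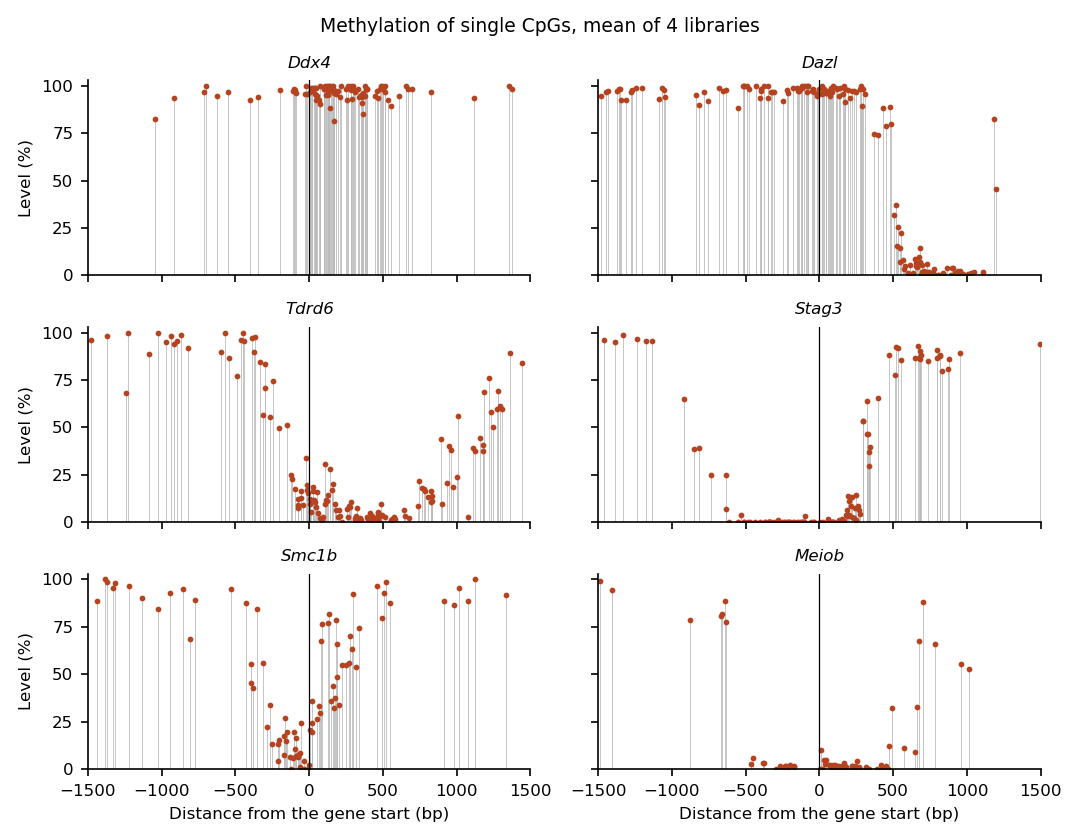
Level of each CpG (y axis, %, mean of the 4 libraries) by distance from the gene start (x axis, bp, negative before the start) for 6 germline genes. Ddx4 is methylated throughout, Dazl falls between 488 and 565 bases into the gene, and Tdrd6, Stag3, Smc1b and Meiob each hold a stretch of low methylation of a different width between methylated flanks.

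The genes of pluripotent cells and the early germ line were all methylated in every library. Dppa4 and Dppa2, paired chromatin proteins, had means of 92.1% and 91.8%. Dppa3 (Stella), an egg protein that guards the zygote's methylation, was at 83.2%. It was at 92.1% to 94.0% up to 249 bases into the gene and at 26.6% to 35.6% from 1000 to 1499 bases after the start, beyond the window. Zfp42 (Rex1), a marker of embryonic stem cells, was at 74.2% and 83.0% in female and male B cells, against 74.1% and 78.1% in T cells, with a dip to 53.9% to 65.6% within 250 bases of the start.

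The testis counterparts of genes used in all cells were methylated as well, the ribosomal protein Rpl10l at a mean of 96.5%, the tubulin Tuba3a at 94.9%, the mitochondrial ADP/ATP carrier Slc25a31 at 94.8% and the helicase D1Pas1 at 92.9%. The germ cell surface protein Tex101 was at 85.1%, and at 92.0% around the start of its longest coding transcript, 4625 bases downstream. Other noncoding starts within 1 kb were those of the snRNA Gm24890 at Piwil2 (786 bases into the gene) and of Gm37912, antisense to D1Pas1 (187 bases).

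Around the gene start the 18 germline genes at 90% or more showed none of the usual valley, whereas Zfp42 and Tdrd1 dipped there, as given above. In bins of 250 bases the median of these 18 genes was 95.5% just before the start and 95.3% just after it, and stayed between 89.0% and 96.0% over 2500 bases on either side. For all 10380 autosomal CpG-rich promoters the same bins were at 0.417% and 0.287%, against 91.7% 2500 bases upstream. The 8 genes under 50% were at 5.80% and 9.82% in these bins, and 44.5% in the bin starting 250 bases into the gene, where CpG-rich promoters in general were at 0.439%. The genes were grouped by their own level, so the depth of each curve is a description.

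**Figure D4:**
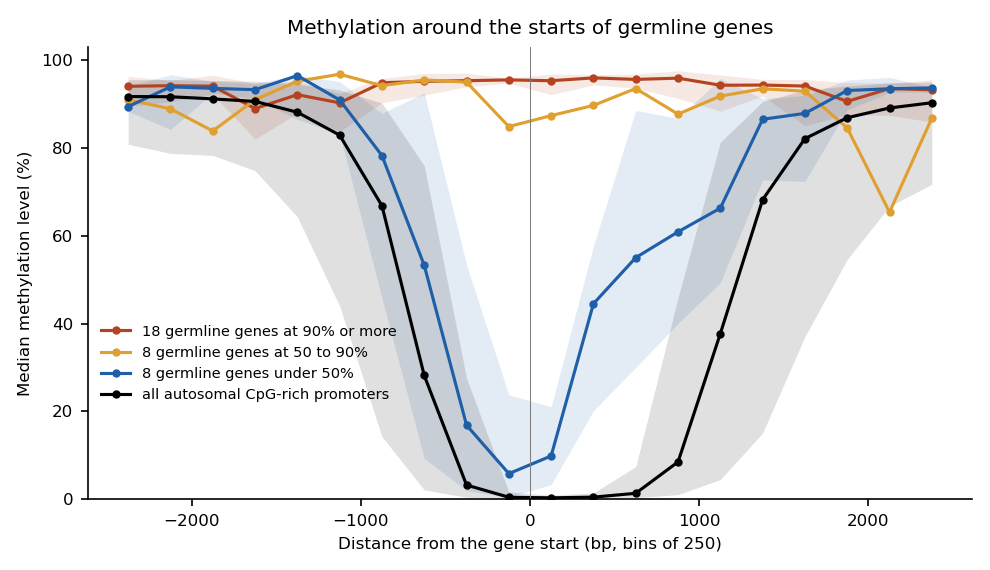
Median level per 250-base bin (y axis, %) by distance from the gene start (x axis, bp) for the germline genes grouped by their level and for all autosomal CpG-rich promoters, with shaded quartiles except for the genes at 50 to 90%. The 18 most methylated genes run flat near 95.3%, and the median of the 8 genes under 50% has a valley that is narrower on the side of the gene than that of CpG-rich promoters, which single genes such as Meiob, Tdrd6 and Rec8 do not follow.

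Set beside their somatic relatives, the germline genes had the higher level in 8 of 9 pairs by the outermost start. The pairs were chosen with earlier results of these data known. Ddx5 was at 0.448% (mean of the 4 libraries) beside 96.4% at Ddx4, Tuba1b at 2.42% beside 94.9% at Tuba3a, and Mov10 at 2.42% beside 94.9% at Mov10l1. Slc25a4 was at 8.27% beside 94.8% at Slc25a31, and Rad21 at 6.49% beside 39.1% at the partly methylated Rec8. The relatives Rpl10, Smc1a and Ddx3x lie on X, where many promoters of the inactive copy are methylated in females. They were compared in male B and male T cells only, although Ddx3x was low in female B and T cells too (3.60% and 4.27%). In male B and male T cells Rpl10 was at 0.329% and 0%, Smc1a at 0.878% and 0%, and Ddx3x at 2.33% and 0.526%. Each was below its relative Rpl10l, Smc1b or D1Pas1 in both. The exception was Stag1, at 90.5% beside 24.8% at Stag3. The outermost Stag1 start is CpG-poor, and the start of its longest coding transcript was at 0.194%.

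The sequence CACGTG, the E-box read by MGA and MAX, and GCGGGAA, an E2F site, are linked to a repressor complex that marks germline promoters for silencing. Both were searched on both strands within 500 bases of the outermost start, also at Spo11. The pair can share at most 1 base. CACGTG occurred in 17 of the 34 germline promoters (50%) and in 17.9% of all promoters tested. Among CpG-rich promoters these shares were 70.6% (12 of 17) and 22.2%. It occurred in 15 of the 26 genes at 50% or more and in 2 of the 8 others, Meiob and Stag3. Of the 102 CpG-rich promoters at 50% or more, which include 11 of these genes, 39 (38.2%) held it. GCGGGAA occurred in 10 of 34 (29.4%) beside 16.3%, and within the CpG-rich class in 41.2% beside 25.4%. Of the 102 it was in 31.4%. It occurred in 7 of the 26 genes at 50% or more and in 3 of the 8 others. Each word holds a CG, so its count also follows CpG number, and a match is not a binding site.

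Within the stretches searched, the CG inside the E-box followed its promoter. Over the germline genes 22 E-boxes were found, of which 21 were measured, and 16 were at 80% or more. In CpG-rich promoters as a whole, 44 of 2730 were (1.61%), and 2591 were at 20% or less, while over promoters of every class 415 of 4079 (10.2%) were at 80% or more. Sycp1, Sycp2, Sycp3, Hormad1 and Tdrd1 held a pair of E-boxes each. Those of Hormad1, 55 and 18 bases before the start, were at 88.3% and 94.8%. The lowest found by this search in a methylated gene was that of Tdrd1, 9 bases before the start, at 41.1%. The Dazl stretch printed above held 2 E-boxes beyond the searched distance, on the unmethylated side of its step. Their CGs, 529 and 549 bases after the start, were at 15.5% and 7.29% in the mean of the 4 libraries. The E-box of Stag3, 101 bases into the gene, was at 0% in all 4 libraries (94 reads in all, which allows up to 3.19%).

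B and T cells were then compared, which asks whether lymphocyte lineages differ at germline promoters. Read counts were fitted over all promoters with the quasi-likelihood test of edgeR, and a call asked for an adjusted p under 0.05 as well as a difference of 20 points. Over all promoters 280 were called (1.37%), and of the 34 germline genes 0. Without the sex term 236 were called and again 0 of the 34. The fits without 1 library lacked this term too and left 1 library of a cell type. Without the female B, female T, male B or male T cell library, 168, 35, 76 and 40 of all promoters were called and 0 of the 34. By adjusted p alone, 2 of the 34 passed (5.88%), beside 19.9% of all promoters. These were Spo11 and Tdrkh. Without the female T cell library 0 passed, and without any other 1 library 1 did (Spo11). When only autosomal promoters were fitted, 1 to 4 passed without 1 library, and the 4, without the female B cell library, were Spo11, Tdrkh, Stag3 (adjusted p = 0.00833, edgeR) and Dazl (0.0291). At an unadjusted p under 0.05 there were 3, namely Spo11, Stag3 and Tdrkh. limma called 0 as well, with 2 at an unadjusted p under 0.05 (Spo11 and Tdrkh). As a median, B minus T came to 0.37 points over the germline genes and 0.97 points over all promoters. Over the 6387 promoters at 50% or more it was 0.42 points, and 9.94% of them passed by adjusted p alone. Over the 26 methylated germline genes it was 0.24 points, and 0 passed. For the 26 methylated genes the differences ran from -2.58 to 3.20 points, with 14 above and 12 below 0.

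The B and T libraries did not overlap in 14 of the 34 genes (41.2%), beside 54.5% of all promoters. Both B libraries lay higher in 9 of the 34 (26.5%), beside 43.9% of all promoters. Both shares lay below those over all promoters, and the shares over promoters of like level were not computed. These counts take in differences of any size, also those under the gap between the libraries in methylated mitochondrial reads.

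Spo11 had the widest difference, 14.1 points higher in B cells at its outermost start, 12.3 in females and 15.9 in males (adjusted p = 4.68e-36, edgeR). It stayed under the 20 points asked for. The fit shares 1 spread over all promoters, so that the scatter of Spo11 itself did not enter this p. Without the sex term, which the fits without 1 library lacked, the adjusted p was 0.00312 (edgeR). limma gave an adjusted p of 0.00431, and without the female T cell library edgeR gave 0.0542, or 4.02e-06 with autosomal promoters alone. In a stretch singled out after its values were seen, 250 to 749 bases after this start, 6 CpGs were at 46.3% and 60.0% in the B cell libraries and at 0% in both T cell libraries (0 of 180 and 0 of 142 reads, which allows up to 1.67% and 2.11%). From 1000 bases before to 249 bases after the start all 4 libraries were at 0% to 0.340%. Around the coding start the difference was 4.19 points (adjusted p = 0.0173, edgeR).

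Tdrkh was 5.92 points higher in B cells, 5.10 in females and 6.74 in males (adjusted p = 0.00842, edgeR). This did not pass in the window of 500 bases (0.173), with limma (0.120), or when any 1 library was left out (0.117 to 0.411). With autosomal promoters alone it passed without the female B (0.00742) or the male B library (0.0352) and not without either T library (0.234 and 0.277). Without the sex term, which the fits without 1 library lacked, Tdrkh did not pass. With each CpG weighted equally the difference was 3.01 points. Stag3, at 7.81 points, did not pass (adjusted p = 0.0862, edgeR), and its difference was 3.93 points with CpGs weighted equally.

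**Figure D5:**
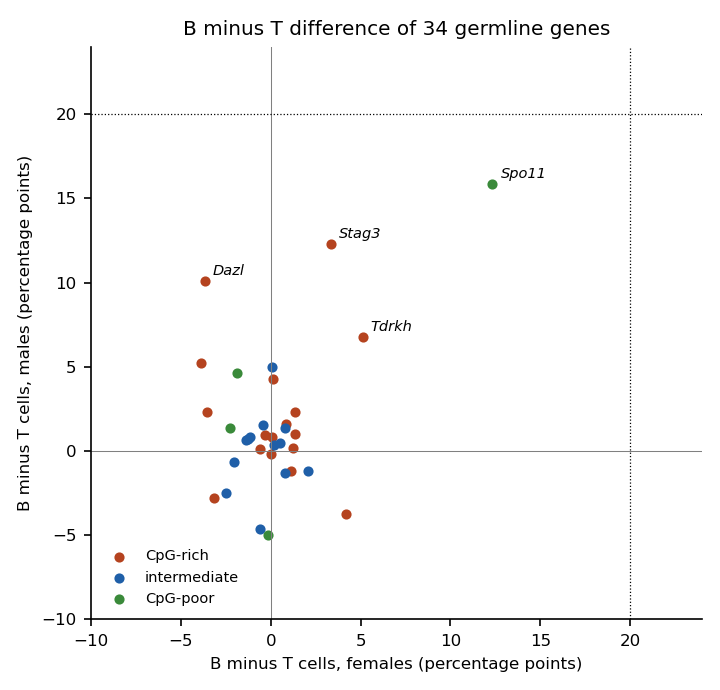
B minus T cell difference of each germline promoter in females (x axis, percentage points) and in males (y axis), coloured by promoter class, with dotted lines at the 20 points asked for in a call. No gene reaches the lines, and Spo11 at 12.3 and 15.9 points and Tdrkh at 5.10 and 6.74 points are higher in B cells in both sexes.

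Females and males were compared in the same fit. Over all promoters 408 (1.99%) were called, all higher in females, and all of them on X. Without the cell type term 257 were called, and the fits without 1 library lacked this term too and left 1 library of a sex. Without either female library 0 were called, without the male B cell library 236 and without the male T cell library 101. Of the 19728 autosomal promoters 0 were called, and of the germline genes, which are all autosomal, 0. By adjusted p alone 0 of 34 passed, beside 1.05% of autosomal promoters and 3.31% of all. At an unadjusted p under 0.05 there were 2 (edgeR), Dazl and Zfp42, with female minus male differences of -9.07 and -6.42 points, and 0 with limma. In both genes the male B cell library was the highest of the 4. With each CpG weighted equally these differences were -0.58 and -3.63 points, and within 500 bases of the start they were 0.14 and -7.61 points. The contrast of the B minus T difference between the sexes, fitted in place of the sex term, called 0 of 34 and 0 of all promoters (0%). It was the mean of 2 libraries minus the mean of the other 2, which is smaller than the gap itself. For Dazl, B minus T was -3.69 points in females and 10.1 in males, and the contrast was -6.89 points. The minimum difference was therefore stricter here, but by adjusted p alone 0 of 34 and 0 of all promoters passed too. At an unadjusted p under 0.05 there was 1 gene, Slc25a31 (edgeR), and 0 with limma.

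A further list of 53 germline genes, drawn up with earlier results of these data known, was set beside these. Of them 34 were at 50% or more in all libraries and 12 under 20%, with a median of 80.9%. In the CpG-rich class 9 of 25 were at 50% or more, beside 11 of 17 above and 102 of 10645 in all. The highest were Tex12, of the synaptonemal complex (96.7%), the spermatid kinase Tssk2 (96.1%) and the Tudor protein Tdrd12 (94.6%). The lowest were the mismatch repair relative Msh5 (1.94%), the break formation factor Mei4 (3.32%) and the centromere guard Sgo2a (3.45%). Of the meiotic recombination genes in this list 6 of 13 were under 20%, beside 2 of 3 above. Those were Meiob, and Spo11 by its outermost start only, since its coding start was at 92.2%. Tnp2, a protein that packs sperm DNA, was the 1 gene of the 53 called between B and T cells (1.37% of all promoters were called). It was at 65.4% and 70.9% in female and male B cells, against 29.3% and 26.2% in T cells. It was called without the sex term, which the fits without 1 library lacked (adjusted p = 0.011, edgeR). It was not called without the female T, male B or male T cell library (adjusted p = 0.0933, 0.0612 and 0.0993, edgeR), and was called without any 1 library when only autosomal promoters were fitted.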

How the data were processed

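WGoxBS data of 4 groups of sorted mouse lymphocytes were analysed. Per the labels' processing notes the authors used Trim Galore, FastQC and Bismark 0.13.1 on mm10. The authors deposited, for each CpG with at least 5 reads, a methylation level as a fraction (0 to 1, rounded up to 3 decimals) and the count of reads. Methylated reads were recovered from these, and 100% of the levels were whole reads (recovered reads over all reads, rounded up alike, gave the level back to within 1e-06). Positions matched GRCm38. The number of unused columns with values of samples was 0. Removal of duplicates is not given in the sources used here.

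For each promoter, reads were added up over the CpGs that all 4 libraries list, within 1 kb of the outermost start of each protein-coding gene in GENCODE M21. Promoters with at least 5 such CpGs and 20 reads per library were fitted with edgeR 4.0.16 in R 4.3.3 (quasi-likelihood test, a term per library, methylation, and cell type and sex on methylation, leaving 1 residual degree of freedom), with Benjamini-Hochberg adjustment over all promoters. The common dispersion was 0.0107, and the prior degrees of freedom were infinite, so the spread was shared. Since a library may hold 1 or both samples of its group, p-values measure only the spread between 4 libraries. The fit was tested on simulated counts drawn with its own shared dispersion, which cannot show whether that spread suits these data. Alternatives were limma 3.58.1 (0.5 added to counts), 500 bp windows, at least 10 reads, every listed CpG, the start of the longest coding transcript, no filter, no minimum difference, equal weight per CpG, no sex term, no cell type term and leaving out each library. The fits without 1 library held the cell type or the sex term alone, and the contrast of both replaced the sex term. The fit of that contrast had a common dispersion of 0.0680 and 3.04 prior degrees of freedom. Levels carry 95% Wilson intervals (scipy 1.17.1), and a count of 0 allows up to 3 reads. Reads were counted once for each CpG they cover, so both may be too narrow.

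All listed genes are named. Of the further germline genes the text names those called and the 3 highest and 3 lowest, with the somatic relatives analysed here and every gene starting within 1 kb. Some relatives are not reported here. The genes and lists were chosen with earlier results of these data known. Stretches within promoters were chosen after their values were seen.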

Additional observations from a re-analysis of the deposited data

How the results depend on the processing

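Of the 34 germline genes, 26 to 27 were at 50% or more and 2 to 4 under 20% in all libraries under every alternative run, and their median level stayed between 91.5% and 92.3%. At the start of the longest coding transcript Spo11 moved from 7.22% to 92.2%. Within 500 bases Dazl moved from 63.6% to 96.3%, Stag3 from 24.8% to 9.45%, Dmc1 from 41.9% to 31.1% and Zfp42 from 77.3% to 66.2%, and with at least 10 reads per CpG Dazl moved to 88.1% and Dmc1 to 54.9%. The other levels moved by less than 10 points. No germline gene was called between B and T cells (edgeR), between the sexes or in the contrast of both under any setting with a minimum difference. Without it 2 passed between B and T cells (Spo11 and Tdrkh), and 4072 of all promoters in place of 280. The fits without 1 library had no sex term, and without that term alone 236 were called. Leaving out 1 library gave 35 to 168 calls between B and T cells over all promoters, and 269 to 274 when only autosomal promoters were fitted, an alternative chosen after seeing the data. No paired analysis was possible because each group has 1 file and the groups share no replicate numbers. With 14 to 17 reads at a median CpG, single CpGs were too shallow to compare between libraries.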
